A study of Mus musculus with 9 samples.

Results

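The cytosolic heat shock and chaperonin genes were examined in mouse embryonic fibroblasts that lacked the copper importer Ctr1. The genes were taken as 31 listed symbols, each matched by its Ensembl identifier to 1 row of the count table, so that they make up 31 of 52661 gene rows and 31 of 18408 genes tested. All 31 genes passed the filter on low counts. They comprise 3 HSP70 chaperones, 3 HSP110 exchange factors, 2 HSP90 chaperones, 5 HSP90 co-chaperones, 5 J-domain proteins, 3 small heat shock proteins with their partner Bag3, the transcription factor Hsf1 and 8 subunits of the chaperonin CCT.

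RNA sequencing covered 9 libraries in 3 groups of 3. The first group was Ctr1 -/- fibroblasts given bathocuproine disulfonic acid (BCS), a copper chelator, for 48 hours. The sample labels give its dose as 500 uM and the series record as millimolar. The second group was untreated Ctr1 -/- fibroblasts (Ctr1-null) and the third was wild type fibroblasts. All 9 libraries came from C57BL/6 embryonic fibroblasts immortalised with T/t antigen and grown in DMEM with a modified N2 supplement, EGF and FGF-2. BCS was given only to Ctr1-null cells, so its action in cells with Ctr1 was not measured, and whether each genotype is 1 clone or line is not stated. The labels do not say whether the libraries of a group came from separate cultures, except that the series record calls the BCS treatments independent. The p-values therefore measure the spread between these libraries, which may in part be technical.

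Heat shock proteins are molecular chaperones that bind unfolded or newly made proteins and help them to fold. HSP70 holds short hydrophobic stretches in a cycle driven by ATP, which J-domain proteins start and exchange factors such as HSP110 and BAG3 end. HSP90 receives selected clients, among them kinases and steroid receptors, from HSP70 through the adaptor encoded by Stip1. The small heat shock proteins hold unfolded proteins without ATP, and CCT is a double ring that folds actin and tubulin. The transcription factor HSF1 trimerises under stress, including stress by excess copper and other metals, and binds heat shock elements built from repeats of the unit NGAAN in alternating orientation.

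Library totals ran from 38962036 to 57206337 counts. The targeted gene, Slc31a1, which encodes Ctr1, had 3.24, 2.54 and 1.69 CPM (counts scaled to the TMM-adjusted library total) in Ctr1-null with BCS, 2.54, 3.88 and 1.40 CPM in Ctr1-null and 56.1, 54.8 and 54.9 CPM in wild type, so every library matched its genotype label. The 10 fibroblast markers summed to between 15040 and 19370 CPM in all libraries, although Thy1, Lum and Fap were under 1 CPM in each. Fn1 and Vim made up most of that sum, and Dcn averaged under 1 CPM in every group. The 6 markers of neural progenitors and glia summed to between 118 and 243 CPM, mostly Nes, with 4 of them under 1 CPM in every library. Within wild type, replicate 1 stood apart from replicates 2 and 3, with a chi-square per gene of 63 and 76.8 against 5 between replicates 2 and 3. Within Ctr1-null, replicate 1 was the farthest, with 50.8 and 64.4 against 19.9 between replicates 2 and 3. Both libraries also stood apart in the chaperone genes. The median deviation of the 31 genes from their mean log2 CPM over all libraries was -0.14, -0.08 and -0.24 in Ctr1-null with BCS, 0.24, -0.08 and -0.12 in Ctr1-null and -0.08, 0.25 and 0.23 in wild type, in the order of replicates 1, 2 and 3. Ctr1-null replicate 1 thus lay near wild type replicates 2 and 3, and wild type replicate 1 lay near the other Ctr1-null libraries.

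**Figure D1:**
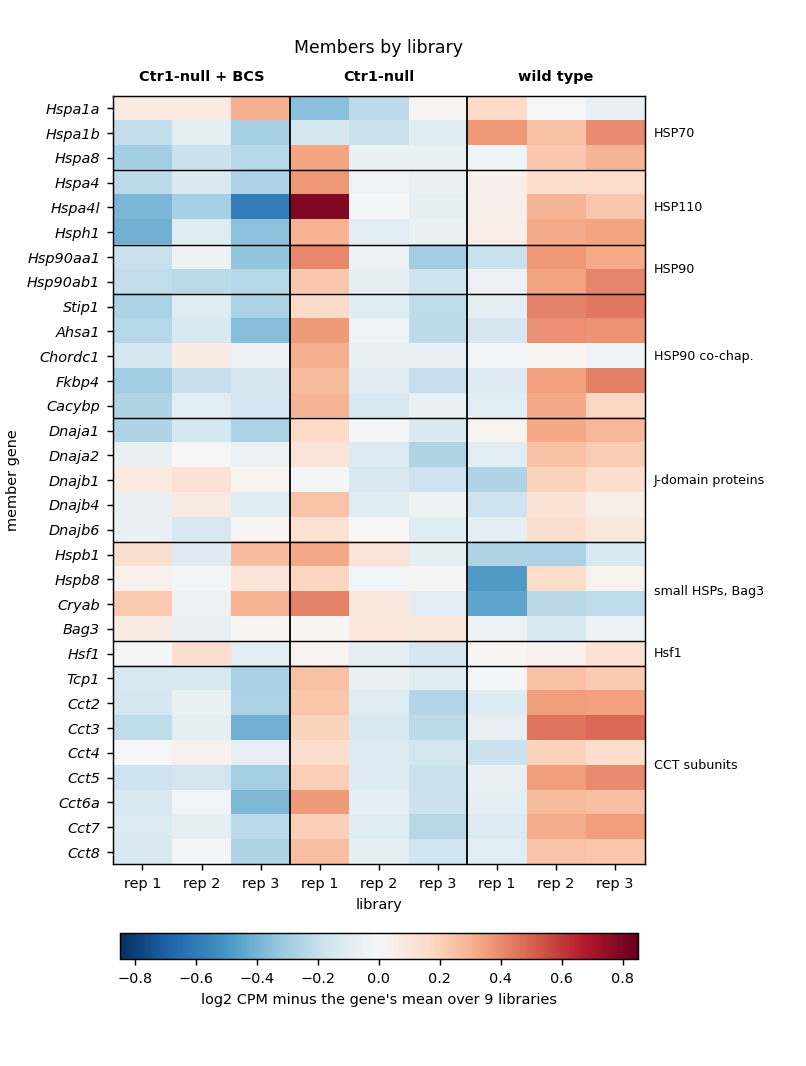
Deviation of each of the 31 genes from its mean log2 CPM over the 9 libraries, by library (columns) and role (rows, in blocks). Most genes outside the block of small heat shock proteins were above their mean in wild type replicates 2 and 3 and in Ctr1-null replicate 1, while all 3 libraries of Ctr1-null with BCS had a median below it.

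In Ctr1-null cells with BCS against wild type, the chaperone genes were mostly lower, and 4 of them passed the test, all downwards. Hspa1b, a stress-inducible HSP70, fell by 0.53 on the log2 scale, Hsph1, an HSP110 exchange factor, fell by 0.53, Hsp90ab1, the constitutive HSP90, fell by 0.47 and Dnaja1, a J-domain partner of HSP70, fell by 0.44. These 4 are 12.9% of the 31 genes, against 7.28% of all genes tested that fell and 15.8% that changed in either direction by the same rule, an adjusted p under 0.05 in edgeR's quasi-likelihood test with Benjamini-Hochberg adjustment. No gene of the list rose, against 8.56% of all genes. In this setting the share called is near the background, but it changed with the setting. DESeq2 called 13 of the 31 genes lower, where it called 12.2% of all genes lower. With single libraries left out, edgeR called from 1 to 16 lower. The log2 fold change was below 0 for 25 of 31 genes, or 80.6%, against 49.3% of all genes. The median log2 fold change was -0.33 over the list and 0.0065 over all genes, and with single libraries left out that of the list ran from -0.43 (without wild type replicate 1) to -0.28 (without wild type replicate 2). An unadjusted p under 0.05 was found for 18 genes, or 58.1%, against 32.9% of all genes. Of these 16 (51.6%) were lower, against 15.9% of all genes, and 2 (6.45%) higher, against 17.0%. The 3 libraries of Ctr1-null with BCS lay below all 3 of wild type for 13 genes (41.9%), against 17.1% of all genes, and above them for Hspb1 and Cryab, against 20.0%. Most of the 31 genes moved together by library, so in all 3 comparisons their signs are not separate observations. They had at least 1003 counts in every library, while the genes tested include ones with lower counts, so these shares are not matched for depth.

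By the median of the list, each of the 2 single steps was smaller, though not for every gene. None of the 31 genes was called in Ctr1-null against wild type, where 0.0109% of all genes were called by edgeR's quasi-likelihood test, which is 2 genes. Unadjusted p-values under 0.05 were found for 3 genes, or 9.68%, against 17.6% of all genes. They were Hspa1b, which was lower in Ctr1-null, and Hspb1 and Cryab, which were higher. The groups did not overlap for Hspb1, Cryab and Bag3, which were higher (9.68%, against 9.49% of all genes), and for Hspa1b, which was lower (3.23%, against 8.62%). The log2 fold change was below 0 for 24 genes, or 77.4%, against 49.3% of all genes, and the median of the list was -0.12, against 0.005. That median was -0.25 without Ctr1-null replicate 1 and -0.21 without wild type replicate 1, but -0.05 without Ctr1-null replicate 3 and -0.07 without wild type replicate 2. DESeq2 called 1 gene of the list in this comparison, Hspa1b, where it called 7.48% of all genes.

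In Ctr1-null with BCS against Ctr1-null none of the 31 genes was called either, where 0.0543% of all genes were called, which is 10 genes. Unadjusted p-values under 0.05 were found for 6 genes, or 19.4%, against 14.7% of all genes. Hspa8, Hspa4, Hspa4l, Hsph1 and Dnaja1 were lower with BCS and Hspa1a was higher. The groups did not overlap for 7 genes that were lower with BCS (22.6%, against 10.9% of all genes) and for Hspa1a and Dnajb1, which were higher (6.45%, against 13.4%). The log2 fold change was below 0 for 25 genes, or 80.6%, against 49.7% of all genes, with a median of -0.14, against 0.0017. The median was -0.04 without Ctr1-null replicate 1 and -0.24 without Ctr1-null replicate 3. DESeq2 called Hspa4l, where it called 5.04% of all genes. The 3 comparisons share libraries with each other, so they are given side by side and not counted together.

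**Figure D2:**
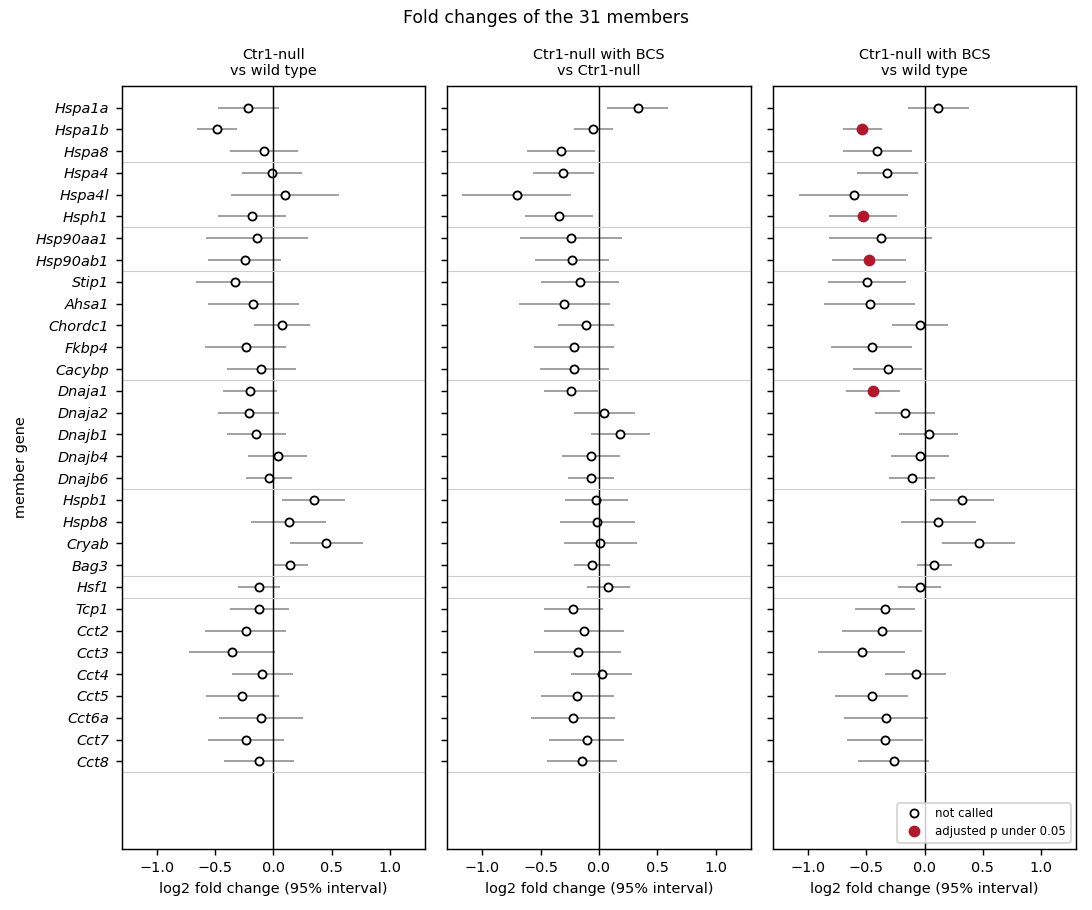
Log2 fold change with its 95% interval for each of the 31 genes in the 3 comparisons. Filled points passed an adjusted p under 0.05 and open points did not; the only filled points are Hspa1b, Hsph1, Hsp90ab1 and Dnaja1 in Ctr1-null with BCS against wild type.

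The count of called genes depended on single libraries. Without wild type replicate 1, edgeR called 16 of 31 genes lower in Ctr1-null with BCS against wild type, where 15.3% of all genes were lower. For Ctr1-null against wild type it then called 5 genes lower, Cct3, Dnajb1, Cct5, Stip1 and Hspa1b, where 8.05% of all genes were lower. Without Ctr1-null replicate 1, which is in neither arm of the comparison of Ctr1-null with BCS against wild type but adds to the shared estimate of spread, that comparison called 12 genes lower, where 8.74% of all genes were lower, and Cryab higher, where 10.1% were higher. Hspa1b alone was called lower without BCS replicate 1 (1.59% of all genes lower), BCS replicate 3 (1.45%), wild type replicate 2 (1.45%) or wild type replicate 3 (1.28%). Dnaja1, Hsph1 and Hspa1b were lower without Ctr1-null replicate 2 (5.02%), Ctr1-null replicate 3 (6.22%) or BCS replicate 2 (4.51%). DESeq2 called 13 genes lower, where it called 12.2% of all genes lower, and Cryab higher, where it called 11.4% higher. In bulk RNA, fewer cells of a kind and less RNA per cell cannot be told apart.

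The promoters of these genes are shown because many of the genes are known HSF1 targets, and because Hspa1a and Hspa1b have almost the same promoter. RefSeq promoters on GRCm38.p6, from 250 bases before to 50 bases after the transcription start, were at hand for 25 of the 31 genes, with 33 promoters in all. Hspa8, Hsp90aa1, Hsp90ab1, Cryab, Hsf1 and Cct4 had no entry. The core of a heat shock element was searched as GAANNTTC or TTCNNGAA, each of which is its own reverse complement, and the copies may overlap. It was present in 16 of 33 promoters, or 48.5%, from 14 genes, against 15.1% of 32851 promoters of all genes and 11.8% of those of the genes tested. Among the CCT subunits it was present in 3 of 9 promoters, those of Cct2, Cct5 and Cct6a. A longer form, in which the 2 cores overlap by their 3 shared bases, was present in 5 promoters (15.2%), of Chordc1, Dnajb6 and Hsph1, against 0.603% of all promoters. Each sequence below runs 5′ to 3′ on the strand of the gene, with every copy of the 8-base core in capitals, joined where copies overlap.
Hspa1a, chr17:34972107-34972406, minus strand: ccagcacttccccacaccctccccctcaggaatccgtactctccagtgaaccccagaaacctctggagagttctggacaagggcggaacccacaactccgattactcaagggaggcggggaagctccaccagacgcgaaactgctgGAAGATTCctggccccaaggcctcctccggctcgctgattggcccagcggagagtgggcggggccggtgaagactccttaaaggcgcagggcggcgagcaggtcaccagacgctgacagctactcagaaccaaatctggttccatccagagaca
Hspa1b, chr17:34959189-34959488, minus strand: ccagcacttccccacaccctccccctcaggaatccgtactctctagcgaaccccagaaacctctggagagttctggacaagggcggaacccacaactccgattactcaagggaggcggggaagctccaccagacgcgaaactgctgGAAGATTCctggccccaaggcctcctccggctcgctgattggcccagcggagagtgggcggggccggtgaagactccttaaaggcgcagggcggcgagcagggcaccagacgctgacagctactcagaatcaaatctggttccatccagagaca
Hsph1, chr5:149636287-149636586, minus strand: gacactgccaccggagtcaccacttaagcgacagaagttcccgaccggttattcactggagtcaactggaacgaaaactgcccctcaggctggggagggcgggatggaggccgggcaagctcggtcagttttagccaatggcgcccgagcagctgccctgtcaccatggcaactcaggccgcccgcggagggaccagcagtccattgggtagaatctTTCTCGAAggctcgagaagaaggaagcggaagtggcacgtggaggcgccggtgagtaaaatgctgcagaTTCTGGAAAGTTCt
Chordc1, chr9:18292017-18292316, plus strand: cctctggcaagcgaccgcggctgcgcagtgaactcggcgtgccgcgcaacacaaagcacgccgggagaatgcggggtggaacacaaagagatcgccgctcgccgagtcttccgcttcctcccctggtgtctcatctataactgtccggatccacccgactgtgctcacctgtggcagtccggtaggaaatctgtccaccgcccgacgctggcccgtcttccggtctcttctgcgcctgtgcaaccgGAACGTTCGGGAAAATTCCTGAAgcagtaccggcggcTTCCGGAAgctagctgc
Hspb1, chr5:135887669-135887968, plus strand: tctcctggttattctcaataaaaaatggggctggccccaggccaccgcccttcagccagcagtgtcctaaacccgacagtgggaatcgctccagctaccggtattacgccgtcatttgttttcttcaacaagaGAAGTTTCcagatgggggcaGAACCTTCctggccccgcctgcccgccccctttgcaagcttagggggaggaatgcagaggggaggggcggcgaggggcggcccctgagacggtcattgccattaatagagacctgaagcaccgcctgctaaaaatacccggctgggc
The Hspa1a and Hspa1b promoters differed at 4 of 300 bases and held the same core at the same place, with its first base 104 bases before the start. Hsph1 held 3 copies and Chordc1 held 5, the most among the genes searched. Hsph1 fell in Ctr1-null with BCS against wild type and Chordc1 had a log2 fold change of -0.04 (95% interval -0.28 to 0.20). A match of these letters is a description of the sequence and does not show a bound site.

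The HSP70 chaperones comprised the stress-inducible pair Hspa1a and Hspa1b and the constitutive Hspa8. Hspa1b (ENSMUSG00000090877.3, chromosome 17, 34956436 to 34959238, minus strand, GRCm38) had 97.4, 106 and 92.6 CPM in Ctr1-null with BCS, 102, 99.1 and 105 CPM in Ctr1-null and 145, 134 and 149 CPM in wild type. All 6 Ctr1-null libraries, with or without BCS, lay below all 3 wild type libraries. It fell in Ctr1-null with BCS against wild type to 0.69 of the wild type level (log2 fold change -0.53 ± 0.08, SE, adjusted p = 0.00573 in edgeR's quasi-likelihood test with Benjamini-Hochberg adjustment). The adjusted p stayed between 7.02e-09 and 0.0366 over all 19 alternatives. Ctr1-null against wild type gave a log2 fold change of -0.48 ± 0.08, with an unadjusted p of 8.83e-05 and an adjusted p of 0.0707 in edgeR. That adjusted p was under 0.05 in 3 of 19 alternatives. With BCS against without, the difference in Ctr1-null cells was -0.05 (95% interval -0.22 to 0.12).

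Hspa1a (ENSMUSG00000091971.3, chromosome 17, 34969190 to 34972156, minus strand) gave another order. It had 28.5, 28.4 and 33.3 CPM in Ctr1-null with BCS, 21.1, 23.1 and 27.5 CPM in Ctr1-null and 30.3, 27.1 and 25.8 CPM in wild type. The BCS libraries lay above the untreated Ctr1-null libraries, while the wild type libraries overlapped with both. The log2 fold change with BCS in Ctr1-null cells was 0.33 ± 0.12, with an adjusted p of 0.245 in edgeR. These genes lie 9951 bases apart and 63.8% of the 31-base windows of the Hspa1a transcript are also in Hspa1b, so the split of reads between them is uncertain, and 564 exon bases of Hspa1a are shared with Gm20481 on the opposite strand. Their sum averaged 129 ± 5.11 CPM in Ctr1-null with BCS, 126 ± 5.79 CPM in Ctr1-null and 171 ± 8.02 CPM in wild type (SD, n = 3 each). Summed into 1 gene, an alternative chosen after seeing the data, they fell in Ctr1-null with BCS against wild type (log2 fold change -0.40 ± 0.07, adjusted p = 0.00926 in edgeR) and gave -0.44 ± 0.07 in Ctr1-null against wild type (adjusted p = 0.0707). The share of the sum assigned to Hspa1a was 23.4 ± 2.77% in Ctr1-null with BCS, 18.9 ± 1.79% in Ctr1-null and 16.3 ± 1.31% in wild type.

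Hspa8, the constitutive HSP70, was the most abundant of the 31 genes per kilobase. It had 2270, 2452 and 2358 CPM in Ctr1-null with BCS, 3513, 2671 and 2677 CPM in Ctr1-null and 2712, 3265 and 3392 CPM in wild type. The BCS libraries were below every other library, and Ctr1-null replicate 1 was the highest of all 9. The log2 fold change of Ctr1-null with BCS against wild type was -0.40 ± 0.13 with an adjusted p of 0.0638 in edgeR. Against Ctr1-null without BCS it was -0.32 ± 0.13, with an adjusted p of 0.297. Small nucleolar RNAs Snord14c, Snord14d and Snord14e overlap its annotated exons on the same strand.

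The HSP110 proteins, encoded by Hsph1, Hspa4 and Hspa4l, release ADP from HSP70 and let it drop its client. All 3 genes had their lowest values in the BCS libraries. Hsph1 (ENSMUSG00000029657.15, chromosome 5, 149614287 to 149636376, minus strand) had 122, 151 and 128 CPM in Ctr1-null with BCS, 199, 152 and 156 CPM in Ctr1-null and 168, 203 and 206 CPM in wild type. BCS replicate 2 came within 2 CPM of Ctr1-null replicate 2, and the wild type libraries were all above the BCS libraries. Hsph1 fell in Ctr1-null with BCS against wild type (log2 fold change -0.53 ± 0.13, adjusted p = 0.0276 in edgeR). That call was lost in 5 of 19 alternatives, with adjusted p-values up to 0.109.

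Hspa4 had 340, 366 and 331 CPM in Ctr1-null with BCS, 512, 388 and 380 CPM in Ctr1-null and 409, 440 and 443 CPM in wild type. Hspa4l had 98.4, 106 and 85.9 CPM in Ctr1-null with BCS, 223, 128 and 122 CPM in Ctr1-null and 133, 158 and 152 CPM in wild type. For both genes the BCS libraries were below all others, and Ctr1-null replicate 1 was the highest library by a wide margin. Hspa4l had the lowest log2 fold change of the 31 genes with BCS against without in Ctr1-null cells, -0.70 ± 0.21, with an adjusted p of 0.191 in edgeR. Without Ctr1-null replicate 1 that value was -0.37. Against wild type, Hspa4l in Ctr1-null with BCS had a log2 fold change of -0.61 ± 0.21 (adjusted p = 0.0758) and Hspa4 of -0.32 ± 0.12 (adjusted p = 0.0896).

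The HSP90 pair had its lowest mean in the BCS libraries. Hsp90ab1 (ENSMUSG00000023944.14, chromosome 17, 45567775 to 45573271, minus strand), the constitutive form, had 2050, 2019 and 1999 CPM in Ctr1-null with BCS, 2779, 2233 and 2097 CPM in Ctr1-null and 2287, 2996 and 3148 CPM in wild type. The BCS libraries varied little and lay below all others. Hsp90ab1 fell in Ctr1-null with BCS against wild type (log2 fold change -0.47 ± 0.14, adjusted p = 0.0486 in edgeR), a call that was lost in 11 of 19 alternatives with adjusted p-values up to 0.175. Hsp90aa1, the inducible form, had 1294, 1432 and 1171 CPM in Ctr1-null with BCS, 1959, 1438 and 1202 CPM in Ctr1-null and 1299, 1913 and 1848 CPM in wild type. Its groups overlapped, and Ctr1-null with BCS differed from wild type by -0.38 on the log2 scale (95% interval -0.81 to 0.06). The share of Hsp90aa1 in the sum of both was 39.1 ± 2.30% in Ctr1-null with BCS, 39.0 ± 2.46% in Ctr1-null and 37.4 ± 1.42% in wild type (SD, n = 3 each).

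The HSP90 co-chaperones had a median log2 fold change of -0.45 in Ctr1-null with BCS against wild type, and none of the 5 was called. Stip1, the adaptor that joins HSP70 to HSP90, had 335, 375 and 335 CPM in Ctr1-null with BCS, 452, 374 and 346 CPM in Ctr1-null and 382, 540 and 550 CPM in wild type. Wild type replicate 1 lay nearest to the BCS libraries, but above them. Its log2 fold change in Ctr1-null with BCS against wild type was -0.49 ± 0.15, just outside the threshold at an adjusted p of 0.0514 in edgeR. Fkbp4, a peptidyl-prolyl isomerase of steroid receptor complexes, had 160, 172 and 178 CPM in Ctr1-null with BCS, 237, 183 and 172 CPM in Ctr1-null and 183, 250 and 265 CPM in wild type.

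Ahsa1, the activator of the HSP90 ATPase, had 104, 113 and 95.8 CPM in Ctr1-null with BCS, 158, 120 and 106 CPM in Ctr1-null and 111, 161 and 161 CPM in wild type. BCS replicate 2 overlapped with wild type replicate 1 in that gene. Cacybp, which binds the ubiquitin ligase SIAH, had 95.1, 107 and 101 CPM in Ctr1-null with BCS, 139, 103 and 109 CPM in Ctr1-null and 107, 142 and 129 CPM in wild type. In both genes wild type replicate 1 had the lowest wild type value, and in Cacybp it exceeded BCS replicate 2 by less than the rounding. Chordc1, a co-chaperone with zinc-binding CHORD domains, had log2 fold changes of -0.04 in Ctr1-null with BCS against wild type, -0.11 with BCS against without and 0.08 in Ctr1-null against wild type.

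**Figure D3:**
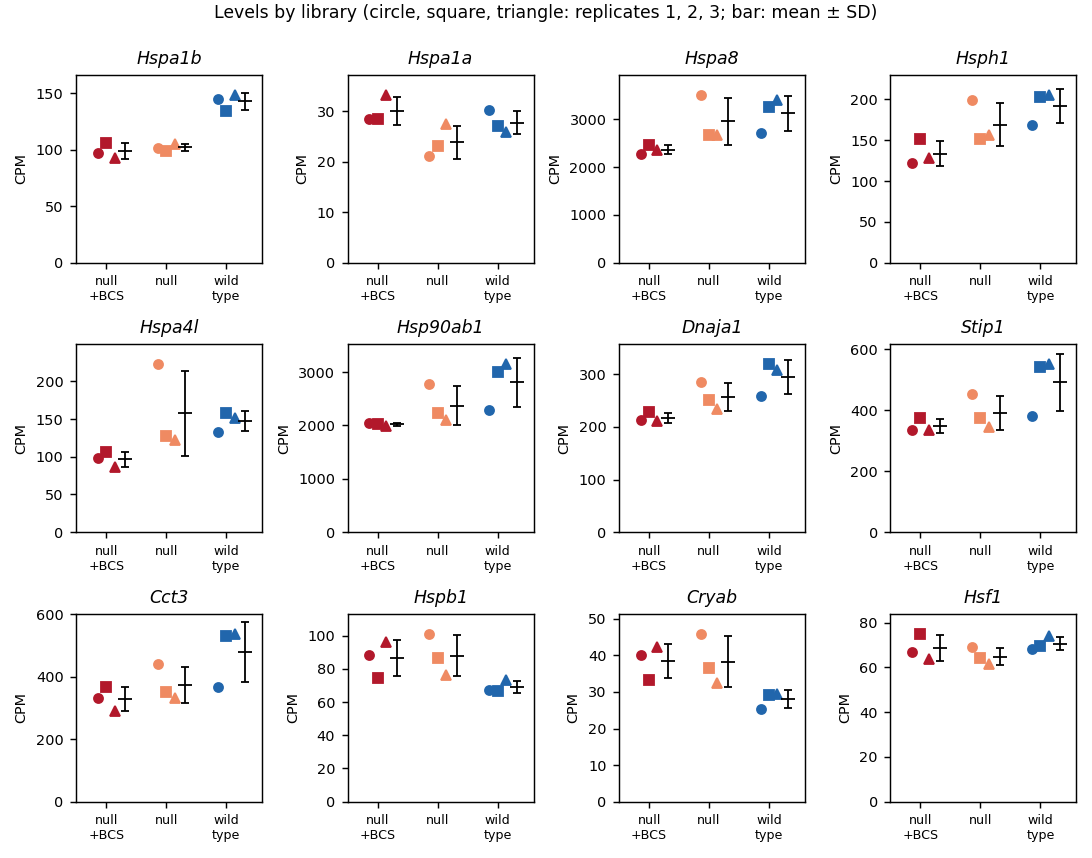
CPM of 12 of the genes in each library of Ctr1-null with BCS, Ctr1-null and wild type, with the mean and SD of each group (n = 3). Hspa1b was lower in all 6 Ctr1-null libraries than in wild type, Hspb1 and Cryab were higher in them, and for Hspa8, Hspa4l and Hsp90ab1 the BCS libraries lay below all others.

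Among the J-domain proteins, which bring clients to HSP70 and start its ATP hydrolysis, Dnaja1 was called and the other 4 were not. Dnaja1 (ENSMUSG00000028410.13, chromosome 4, 40722150 to 40737149, plus strand) had 213, 229 and 211 CPM in Ctr1-null with BCS, 286, 251 and 234 CPM in Ctr1-null and 259, 319 and 308 CPM in wild type. Every BCS library was below every other library. It fell in Ctr1-null with BCS against wild type (log2 fold change -0.44 ± 0.10, adjusted p = 0.0232 in edgeR), and the call was lost in 5 of 19 alternatives, with adjusted p-values up to 0.0946. Its exons share 608 bases with Smu1 on the opposite strand, and reads of the pair cannot be told apart without strand.

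Dnaja2, its close relative, had 213, 223 and 217 CPM in Ctr1-null with BCS, 241, 205 and 187 CPM in Ctr1-null and 208, 265 and 259 CPM in wild type, with overlapping groups. Dnajb1, the classical stress-inducible HSP40, had 69.3, 71.1 and 66.4 CPM in Ctr1-null with BCS, 65.0, 59.5 and 57.8 CPM in Ctr1-null and 54.7, 74.8 and 72.2 CPM in wild type. The BCS libraries lay above the untreated Ctr1-null libraries, by a log2 fold change of 0.18 (95% interval -0.07 to 0.43), and wild type spanned both. Dnajb4 and Dnajb6 had log2 fold changes between -0.11 and 0.04 in the 3 comparisons.

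The small heat shock proteins and Bag3 had a median of the opposite sign to the rest of the list in both comparisons with wild type. Their median log2 fold change was 0.22 in Ctr1-null with BCS against wild type, where that of the other 27 genes was -0.34. It was 0.25 in Ctr1-null against wild type, where that of the other 27 genes was -0.15. With BCS against without, it was -0.02. None of the 4 genes was called in any of the 3 comparisons by edgeR.

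Hspb1 (ENSMUSG00000004951.10, chromosome 5, 135887919 to 135889563, plus strand), a small heat shock protein that also binds actin filaments, had 88.4, 74.7 and 96.5 CPM in Ctr1-null with BCS, 101, 86.7 and 76.3 CPM in Ctr1-null and 67.4, 67.0 and 73.6 CPM in wild type. Cryab (ENSMUSG00000032060.10, chromosome 9, 50751325 to 50756636, plus strand), alpha B crystallin, had 40.1, 33.4 and 42.2 CPM in Ctr1-null with BCS, 45.9, 36.6 and 32.3 CPM in Ctr1-null and 25.2, 29.2 and 29.6 CPM in wild type. For both genes all 6 Ctr1-null libraries, with or without BCS, were above all 3 wild type libraries. Cryab in Ctr1-null with BCS against wild type had a log2 fold change of 0.46 ± 0.14 with an adjusted p of 0.0517 in edgeR, and 9 of 19 alternatives took it under 0.05. Hspb1 had 0.32 ± 0.12 there, with an adjusted p of 0.0984.

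Bag3, which links HSP70 to small heat shock proteins and to autophagy, had 56.1, 51.2 and 53.9 CPM in Ctr1-null with BCS, 53.7, 57.4 and 57.0 CPM in Ctr1-null and 51.5, 48.8 and 51.6 CPM in wild type. Its range over all libraries was narrow. Hspb8, the small heat shock protein that binds BAG3, had a log2 fold change of 0.12 in Ctr1-null with BCS against wild type and 0.13 in Ctr1-null against wild type, with overlapping groups. Muscle is known to express Cryab and its relatives strongly, and markers of muscle and of fat cells were read beside these values. The 6 muscle markers summed to between 3.84 and 9.18 CPM in Ctr1-null with BCS, 2.14 and 4.90 CPM in Ctr1-null and 1.43 and 2.18 CPM in wild type, with Myod1 at 0 and 5 of 6 under 1 CPM in every library. The remaining marker, Des, averaged 5.31 CPM in Ctr1-null with BCS, 2.68 CPM in Ctr1-null and 0.82 CPM in wild type. Myog also had a higher mean in Ctr1-null with BCS than in wild type, while Tnnt2, Actn2 and Ckm had lower means. The 6 fat cell markers summed to between 67.3 and 81.7 CPM in Ctr1-null with BCS, 58.7 and 85.5 CPM in Ctr1-null and 24.4 and 30.3 CPM in wild type, with Adipoq and Plin1 under 1 CPM in every library. Transcripts of the mitochondrial genome took between 3.38 and 4.16% of counts in Ctr1-null with BCS, 3.85 and 4.32% in Ctr1-null and 2.90 and 3.62% in wild type. The part of these in the small heat shock protein values was not tested.

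Hsf1 itself, the gene of the regulator, was not called in any comparison. It had 67.1, 75.1 and 63.7 CPM in Ctr1-null with BCS, 69.0, 64.1 and 61.6 CPM in Ctr1-null and 68.3, 69.7 and 74.1 CPM in wild type. Its groups overlapped in all 3 comparisons, and the log2 fold change of Ctr1-null with BCS against wild type was -0.04 (95% interval -0.23 to 0.14). HSF1 is regulated mainly by its protein state, which RNA counts do not report.

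**Figure D4:**
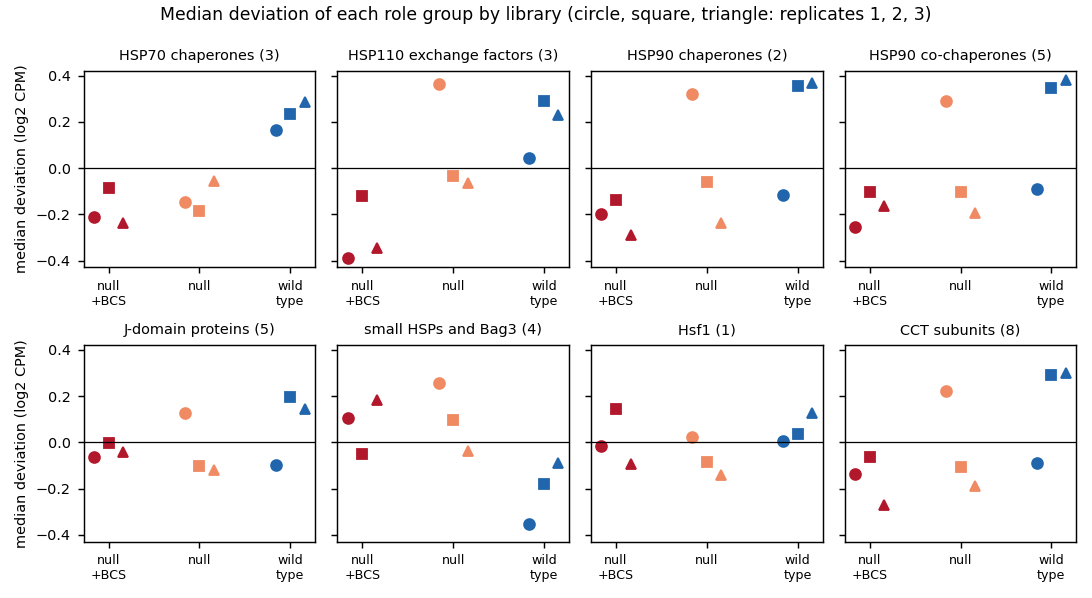
Median deviation from the mean log2 CPM over the 9 libraries for each role, by library of Ctr1-null with BCS, Ctr1-null and wild type. For the CCT subunits, wild type replicate 1 lay at -0.09 against 0.29 and 0.30 in the other wild type libraries, and Ctr1-null replicate 1 at 0.22 against -0.10 and -0.19; the small heat shock proteins and Bag3 were below 0 in all wild type libraries.

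The 8 CCT subunits, which form one ring with each subunit at a fixed place, had a median log2 fold change of -0.34 in Ctr1-null with BCS against wild type. All 8 values were below 0, from -0.54 for Cct3 to -0.08 for Cct4, and none was called. Cct3 had 331, 366 and 290 CPM in Ctr1-null with BCS, 440, 350 and 330 CPM in Ctr1-null and 367, 529 and 537 CPM in wild type. Cct5 had 335, 341 and 312 CPM in Ctr1-null with BCS, 440, 352 and 333 CPM in Ctr1-null and 364, 486 and 502 CPM in wild type. In both subunits the BCS libraries lay below wild type without overlap. For Cct3, wild type replicate 1 exceeded the nearest BCS library only narrowly (367 against 366 CPM), and for Cct5 these were 364 and 341 CPM. The adjusted p in edgeR was 0.0542 for Cct3 and 0.0553 for Cct5.

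Tcp1, the alpha subunit, had 419, 418 and 381 CPM in Ctr1-null with BCS, 548, 442 and 429 CPM in Ctr1-null and 455, 547 and 539 CPM in wild type. Cct6a had 371, 399 and 311 CPM in Ctr1-null with BCS, 521, 385 and 357 CPM in Ctr1-null and 384, 490 and 486 CPM in wild type. The BCS libraries were below all others for Tcp1, and overlapped with both other groups for Cct6a. Cct2, Cct7 and Cct8 had log2 fold changes of -0.36, -0.34 and -0.27 in Ctr1-null with BCS against wild type, with overlapping groups. Exon bases are shared with a gene on the opposite strand for Cct6a (452 bases with Psph), Cct7 (214 bases with Pradc1), Cct8 (192 bases with Usp16) and Tcp1 (571 bases with Acat3). The CCT median was -0.18 in Ctr1-null against wild type, and with BCS against without it was -0.16.

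**Figure D5:**
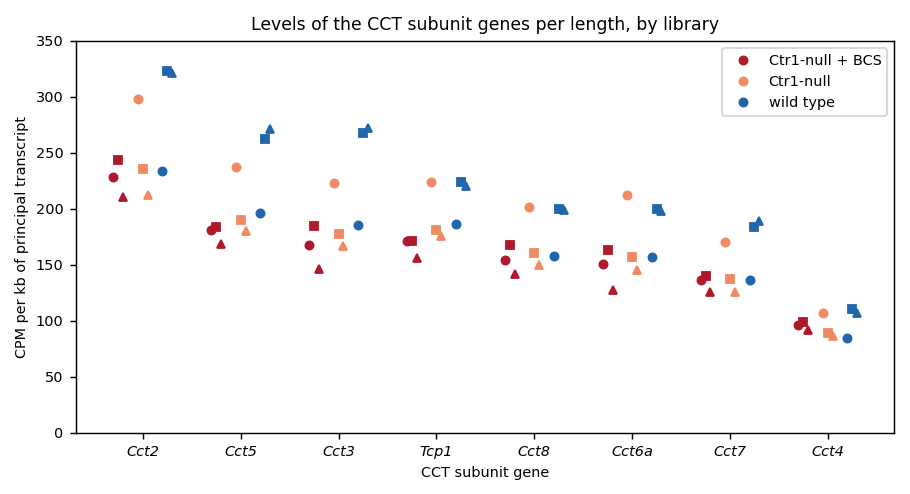
CPM per kilobase of transcript for the 8 CCT subunits in each library of Ctr1-null with BCS, Ctr1-null and wild type. Cct2 was the highest and Cct4 the lowest subunit in all 9 libraries.

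Levels were compared between genes as CPM per kilobase of the principal transcript. Hspa8 averaged 1175 CPM per kilobase over the 9 libraries, Hsp90ab1 953 and Hsp90aa1 459, and these were the top 3 of the list. The 8 CCT subunits took ranks 4 to 12, with Stip1 among them at rank 7 (194 CPM per kilobase). Cct2 was the highest subunit at 256 CPM per kilobase and Cct4 the lowest at 96.6, each in 9 of 9 libraries, and Cct7 was next to last in each. The ratio of Cct2 to Cct4 ran from 2.29 to 3.02 over the libraries. Within the 8 subunits, ranks 2 to 4 were shared among Cct3, Cct5 and Tcp1, and ranks 5 and 6 between Cct6a and Cct8, so neighbours in that order changed place between libraries. Hspa1a was the lowest of the 31 genes at 9.18 CPM per kilobase and Hspa4l next at 14.1. The level of Hspa1a depends on the uncertain split of reads with Hspa1b. Hspa4l had the longest principal transcript of the list, 9479 bases, and its rank depends on that annotated length. The 31 genes together took between 1.10 and 1.20% of counts in Ctr1-null with BCS, 1.15 and 1.47% in Ctr1-null and 1.20 and 1.46% in wild type.

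Other genes of the same pathways were read from lists drawn up with the earlier results of these data known. Called genes were found only in Ctr1-null with BCS against wild type by edgeR's quasi-likelihood test, where 8.56% of all genes tested rose and 7.28% fell. Among 28 further co-chaperones of HSP70 and HSP90, 1 rose (3.57%, against 8.56% of all genes) and 3 fell (10.7%, against 7.28%), so their share is near the background. Dnajb2, a J-domain protein with ubiquitin-interacting motifs, averaged 52.1 ± 6.06 CPM in Ctr1-null with BCS and 37.8 ± 1.82 CPM in wild type (log2 fold change 0.47 ± 0.10). Ppid, a cyclophilin that binds HSP90, averaged 92.2 ± 9.14 CPM in Ctr1-null with BCS and 134 ± 17.1 CPM in wild type (log2 fold change -0.53 ± 0.13). Fkbp5, an immunophilin of steroid receptor complexes, fell by 0.35 on the log2 scale and Bag4, an HSP70 exchange factor, by 0.40. The groups did not overlap for these 4 genes. The median of the 28 was -0.09.

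Among 10 genes of prefoldin, which hands actin and tubulin to CCT, and of CCT cofactors, Pfdn2 and Vbp1 fell (2 genes, against 7.28% of all genes) and none rose (against 8.56%). Vbp1, a prefoldin subunit, averaged 33.5 ± 2.76 CPM in Ctr1-null with BCS and 53.7 ± 15.5 CPM in wild type, with overlap at wild type replicate 1. Pfdn2, another subunit, averaged 35.2 ± 0.303 CPM in Ctr1-null with BCS and 43.0 ± 2.67 CPM in wild type. Of 11 actin and tubulin genes, the clients of CCT, Tubb5 fell (9.09%, against 7.28% of all genes) and none rose (against 8.56%). Tubb5 averaged 1230 ± 61.4 CPM in Ctr1-null with BCS and 1567 ± 146 CPM in wild type. The median of the actin and tubulin genes was -0.26.

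Of 7 other genes listed as small heat shock proteins, 5 were tested and Hspb3 and Cryaa were not. Hspb6, Hspb11 and Hspb2 rose in Ctr1-null with BCS against wild type (3 of 5, against 8.56% of all genes) and none fell (against 7.28%). That count includes Hspb11, which by function is not of this family, and Hspb2, whose group means were 1.03 CPM or less. Hspb6 had a mean of 67.5 ± 7.15 CPM in Ctr1-null with BCS, 69.0 ± 7.90 CPM in Ctr1-null and 47.6 ± 6.13 CPM in wild type, a log2 fold change of 0.50 ± 0.12 between Ctr1-null with BCS and wild type. Hspb11, which encodes an intraflagellar transport protein despite its symbol, averaged 11.5 ± 1.92 CPM in Ctr1-null with BCS and 8.02 ± 0.374 CPM in wild type. Hspb2 averaged 1.03 ± 0.347 CPM in Ctr1-null with BCS and 0.381 ± 0.116 CPM in wild type, and 252 bases of its exons are shared with Cryab on the opposite strand, and reads of the pair cannot be told apart without strand. The muscle and fat cell marker sums given above were also higher in Ctr1-null with BCS than in wild type, the muscle sum mainly through Des. Their part was not tested.

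From the list of the HSF family and further HSF1 targets, with 8 genes tested, Hsf2 fell in Ctr1-null with BCS against wild type. That is 12.5% of the list, against 7.28% of all genes, so with 1 gene the share that fell is near the background. Hsf2, a relative of HSF1, averaged 29.0 ± 1.06 CPM in Ctr1-null with BCS, 30.9 ± 2.10 CPM in Ctr1-null and 41.6 ± 7.59 CPM in wild type (log2 fold change -0.52 ± 0.13 between Ctr1-null with BCS and wild type, adjusted p = 0.0248 in edgeR). In the other comparisons no gene of the 5 lists was called. The smallest p-values there belonged to Hspa12a, Vbp1, Tuba1a, Hspb6 and Hsf2 in Ctr1-null against wild type. With BCS against without they belonged to Fkbp5 (log2 fold change -0.48 ± 0.10, adjusted p = 0.0997 in edgeR), Pfdn2, Tubb5 and Hspb2 in 4 of the lists.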

How the data were processed

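RNA was sequenced from 9 libraries in 3 groups, prepared with an Illumina TruSeq kit per the labels' protocols. Per the submitters' processing notes, the tools were Salmon, STAR, DESeq2 and FastQC on GRCm38, with neither role nor version stated, and the strand setting is not given in the sources used here. The deposited table used for all tests holds estimated counts per gene, which the authors had rounded to whole numbers. A second deposited table holds signal values that the authors scaled, from which their factors were recovered as 1 of the alternatives.

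Of 52661 gene rows, 52566 matched a symbol in GENCODE release M21 on GRCm38 and 95 did not. Genes passed edgeR's filterByExpr (at least 10 counts at the median depth and 15 in total), which left 18408. CPM and fold changes used TMM scaling. The tests were edgeR 4.0.16 quasi-likelihood fits in R 4.3.3 over all 9 libraries, with Benjamini-Hochberg adjustment over all tested genes and a threshold of 0.05. The SE of a log2 fold change is its size over the square root of F. Transcript lengths and exon overlaps came from GENCODE and promoters from RefSeq. The fitting code was tested on simulated data.

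The members and lists were chosen with earlier results of these data known. Values for each library are printed for every called member, for the 2 members with the smallest p of each role in each comparison, and for Hsf1. For the other lists the called genes are named, or else the smallest p. A gene of these lists is not reported here. Alternatives were other scaling (DESeq2 size factors, upper quartile, library size only, the authors' factors), other filters, DESeq2 1.42.0, limma 3.58.1 with voom, only the groups compared, a replicate block and each library left out. Depth ran from 38962036 to 57206337 counts, and the lowest member count was 1003, so the spread between libraries and not counting error sets the precision.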

Additional observations from a re-analysis of the deposited data

How the results depend on the processing

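Member results were recomputed under 19 alternatives, giving 1767 values. Of these, 1636 kept direction and side of the threshold, 21 lost and 59 gained a call, and 51 turned direction, none of them a called value. The causes were not tested.

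In Ctr1-null with BCS against wild type, the 4 members called lower became 7 with at least 1 CPM in 3 samples or only the 2 groups compared, 9 with no filter and 13 with DESeq2, where 10.1%, 6.52%, 3.64% and 12.2% of all genes were lower. Members called higher became 1 in each of these and with upper-quartile factors, and 2 with library size only, where 10.8%, 8.09%, 4.61%, 11.4%, 9.34% and 11.2% of all genes were higher. Members called lower became 3 with upper-quartile factors or library size only, where 6.06% and 4.26% of all genes were lower. Hsp90ab1 also lost its call with the authors' factors. The range with single libraries left out was 1 to 16 lower, 0 to 1 higher and 568 to 5840 genes called, against 2916. For Ctr1-null against wild type, 1 member was called lower with no filter (0.298% of all genes lower) and with DESeq2, and 0 to 5 with libraries left out. The 2 genes called became 4 under each other scaling and the 1 CPM filter, 6 with limma-voom, 1 with only the 2 groups compared, 265 with no filter, 1056 with DESeq2 and 1 to 3254 with libraries left out. In Ctr1-null with BCS against Ctr1-null, DESeq2 called 1 member lower, and the 10 genes called became 114 with no filter, 711 with DESeq2 and 0 to 183 with libraries left out. Library size only moved the median of all genes in Ctr1-null with BCS against wild type to 0.11 and the share of calls that were higher to 72.5%, against 54.1%. It moved that share to 75%, against 50%, in Ctr1-null against wild type, as did upper-quartile factors, and to 85.7%, against 70%, with BCS against without, where the authors' factors gave 87.5%. The 75% rests on 3 genes higher and 1 lower, which the 1 CPM filter also gave. The 85.7% rests on 6 higher and 1 lower, so single genes move these shares.

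The replicate numbers showed no clear pairing of the libraries. Of 9 pairs with the same number, the correlation of deviations was over 0.1 in 2 and ran from -0.32 to 0.28. Deviations were taken from the mean of 3 libraries per group, so these correlations cannot exclude a pairing. With the replicate block, 1, 2 and 1543 genes were called in Ctr1-null against wild type, with BCS against without, and with BCS against wild type, and in the last 1 member was lower, Hspa1b.

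With all 9 libraries kept, the values that turned direction were between -0.0135 and 0.066. Hspa4 in Ctr1-null against wild type gave 0.034 with library size only, 0.025 with upper-quartile factors and 0.0038 with the 1 CPM filter, and Dnajb6 0.010 with library size only. With BCS against without, library size only gave 0.026 for Hspb1, 0.036 for Hspb8 and 0.0002 for Hspa1b, the sum with Hspa1a gave 0.0325, DESeq2 and its size factors gave -0.0011 for Cryab, and the authors' factors gave -0.011 for Cryab and -0.0135 for Cct4. With BCS against wild type, library size only gave 0.061 for Chordc1, 0.066 for Dnajb4, 0.028 for Cct4 and 0.058 for Hsf1, upper-quartile factors gave 0.0018 for Chordc1 and 0.0051 for Dnajb4, and the authors' factors gave 0.0016 for Chordc1.

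With single libraries left out, some ranges crossed 0. For Ctr1-null against wild type these were -0.0606 to 0.14 for Chordc1, -0.0805 to 0.10 for Dnajb4, -0.11 to 0.0119 for Dnajb6, -0.35 to 0.0101 for Hsp90aa1, -0.17 to 0.0641 for Hspa4, -0.24 to 0.25 for Hspa4l and -0.0391 to 0.26 for Hspb8. With BCS against without they were -0.24 to 0.0237 for Cct2, -0.0418 to 0.13 for Cct4, -0.20 to 0.0301 for Cct7, -0.19 to 0.0221 for Chordc1, -0.10 to 0.16 for Cryab, -0.0416 to 0.15 for Dnaja2, -0.14 to 0.0434 for Dnajb4, -0.13 to 0.0877 for Hspb1 and -0.0525 to 0.0525 for Hspb8. With BCS against wild type they were -0.10 to 0.0137 for Chordc1, -0.0992 to 0.12 for Dnajb1, -0.13 to 0.0238 for Dnajb4, -0.12 to 0.0057 for Hsf1 and -0.0588 to 0.25 for Hspb8.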
